A study of Chelonia mydas with 15 samples.

Results

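Gene expression at laying was compared with expression after 36 h of incubation in embryos of the green sea turtle, Chelonia mydas. All 15 libraries of the series enter the comparison. The 5 freshly laid libraries came from embryos removed within 1 h of laying. Of the 10 incubated libraries, 5 were from the normoxia group, whose eggs lay buried in sand for 36 h with oxygen at about 159 mmHg, and 5 from the hypoxia group, whose eggs were sealed in nitrogen-filled bags below 8 mmHg and buried for as long. All incubated eggs were held at 26 to 28 °C. Every embryo was frozen once out of the egg, and total RNA of the embryo was sequenced. The freshly laid embryo was set against the mean of both incubated groups, each group with equal weight, so that a change tied to 1 oxygen level counts only in part. Time after laying, handling of the egg and burial differ together between freshly laid and incubated eggs and cannot be told apart. The labels give no female or clutch for an egg, so each p-value rests on the scatter among these libraries alone, part of which may be technical.

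Turtle eggs are laid with the embryo stopped at the gastrula stage. In the low oxygen of the oviduct the embryo halts, a state called pre-ovipositional arrest, and development resumes once the egg meets air, while continued low oxygen prolongs the arrest. At gastrulation, cells of the epiblast lose the transcription factors of pluripotency, move through the blastopore or primitive streak under Nodal and Wnt signals, and form mesoderm and endoderm. Afterwards the neural plate, the somites and the gut take shape, and the yolk sac begins to digest and carry yolk.

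Named genes received 14496102 to 21771745 counts per library at laying, 18257476 to 26805841 in normoxia and 17590559 to 20797573 in hypoxia. Levels in CPM below are counts scaled to library totals after TMM, a trimmed-mean correction for composition, whose factors were 0.785 to 0.904 in hypoxia and 1.00 to 1.14 in the other groups. In a principal component analysis the first component (33.5% of the variance) set normoxia against hypoxia, and the second (23.4%) set all 5 freshly laid libraries, at 50.4 to 110.4, apart from all 10 incubated ones, at -53.9 to -11.7. Freshly laid replicate 1 lay farthest out at 110.4, and had the fewest counts and the fewest genes with a count, 16723. Of 19 tested genes of the pluripotency list 14 had a mean above 10 CPM at laying, beside 10533 of all 16639 tested genes. That count alone therefore does not mark the tissue as epiblast. The homeobox gene MIXL1, a mark of the streak, had 37.5 to 115 CPM. Each library is a whole embryo, so fewer cells of a type and less RNA per cell cannot be told apart.

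Of the 12 genes with the highest level at laying, 8 encode ribosomal proteins or a translation factor. Levels are compared between genes as TPM, which divide counts by gene length and scale every library to the same sum, and the 12, chosen among genes with a symbol, were EEF1A1, ENO1, ACTB, RPLP0, RPS2, PPIA, PPDPF, RPS6, RPS12, RPS3A, RPSA and RPL7A. EEF1A1, which encodes the factor that brings aminoacyl-tRNA to the ribosome, stood at 14812 ± 2196 TPM (SD, n = 5). ENO1, for the glycolytic enzyme enolase, came next with 13502 ± 2691 TPM, and ACTB, for cytoplasmic actin, with 10658 ± 1070.1 TPM. The levels of EEF1A1 and ENO1 differed by less than their SDs, and the level of the fourth, RPLP0 of the large ribosomal subunit, was 6124 ± 706 TPM. The chaperone isomerase gene PPIA had 5704 ± 409 TPM and PPDPF, known from pancreas development in zebrafish, 5542 ± 724 TPM.

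After 36 h this order changed by oxygen level. ENO1 had 3518 ± 1249 TPM in normoxia and 19147 ± 4769.6 TPM in hypoxia, on either side of its level at laying. Its mean of both groups was not called against laying, with a log2 fold of -0.42 ± 0.21 (SE) and an edgeR adjusted p of 0.133. It was called lower with the block of 50 title numbers as a covariate (-0.47, adjusted p = 0.0116) and with scaling by totals only (-0.58, 0.0235). Under that scaling ACTB was called lower too (-0.43, 0.0173), where TMM scaling gave an adjusted p of 0.134. The 7 ribosomal protein genes, PPIA and PPDPF rose on average after TMM scaling, which TPM do not carry, by log2 folds from 0.41 for RPS3A to 0.71 for PPDPF, with larger folds in hypoxia than in normoxia in each. EEF1A1 passed for the mean at 0.46 ± 0.14 (edgeR adjusted p = 0.017), with -0.07 in normoxia and 0.99 in hypoxia, and its call ended without freshly laid replicate 1 (0.0533) or 2 (0.0578). The calls of RPLP0 and RPS3A ended without freshly laid replicate 1, 2 or 4, at adjusted p from 0.0522 to 0.0736. Both calls also ended with scaling by totals only (0.0621 and 0.0801) and with neighbouring normoxia libraries summed (0.0613 and 0.07).

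**Figure D1:**
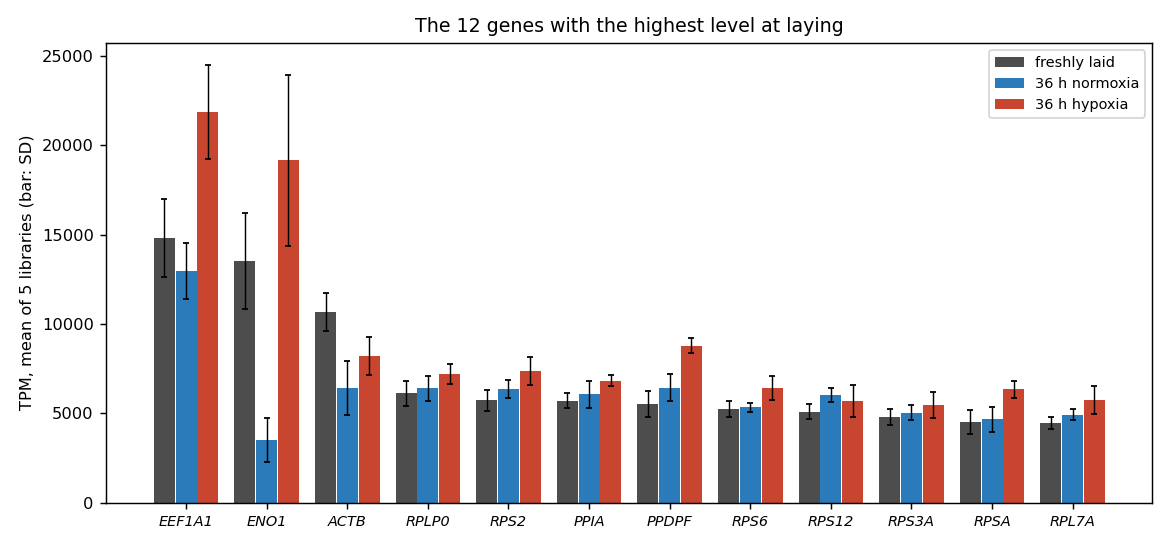
Mean level in TPM of the 12 genes with a symbol that were highest at laying, in freshly laid embryos, after 36 h in normoxia and after 36 h in hypoxia. Bars are means of 5 libraries and error bars are SDs. ENO1 is lower in normoxia and higher in hypoxia than at laying, while most of the others are highest in hypoxia.

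Between laying and the mean of the incubated groups, 5017 of 16639 tested genes changed, which is 30.2% of them (edgeR quasi-likelihood test, adjusted p under 0.05). Of these, 2440 genes (14.7%) were higher and 2577 (15.5%) lower after incubation. With libraries scaled by their totals only, the split was 1714 higher and 3769 lower, since that scaling moves the median of all genes by -0.15 on the log2 scale. Every library of one side lay beyond every library of the other in 784 called genes (4.71%), 373 higher (2.24%) and 411 lower (2.47%). No gene went from no count in all 5 freshly laid libraries to at least 10 counts in each incubated library, and 0 went the other way.

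The mean hides much of the difference between the oxygen levels. Hypoxia and normoxia differed from each other in 8123 genes (48.8%), with 25.7% higher and 23.2% lower in hypoxia. In the separate arms, 5193 genes (31.2%) differed between normoxia and laying, 15.2% higher and 16.1% lower, and 6701 (40.3%) between hypoxia and laying, 20.9% higher and 19.4% lower. Of the genes higher after incubation, 942 were also higher in hypoxia than in normoxia, 372 lower, and 1126 did not pass that test. Of those lower after incubation, the numbers were 612, 886 and 1079. A stricter rule asked for a change from laying in both groups at once, with the larger of both p-values adjusted over all genes. By that rule 667 genes (4.01%) changed the same way under both oxygen levels, 337 upward (2.03%) and 330 downward (1.98%), and 200 (1.2%) changed in opposite ways. Both arms share the freshly laid libraries, so the count of 667 contains whatever is particular to those 5. It fell to 406 without freshly laid replicate 2 and to 426 without replicate 4. When the normoxia libraries with neighbouring title numbers were summed, leaving 3 of them, it was 313.

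**Figure D2:**
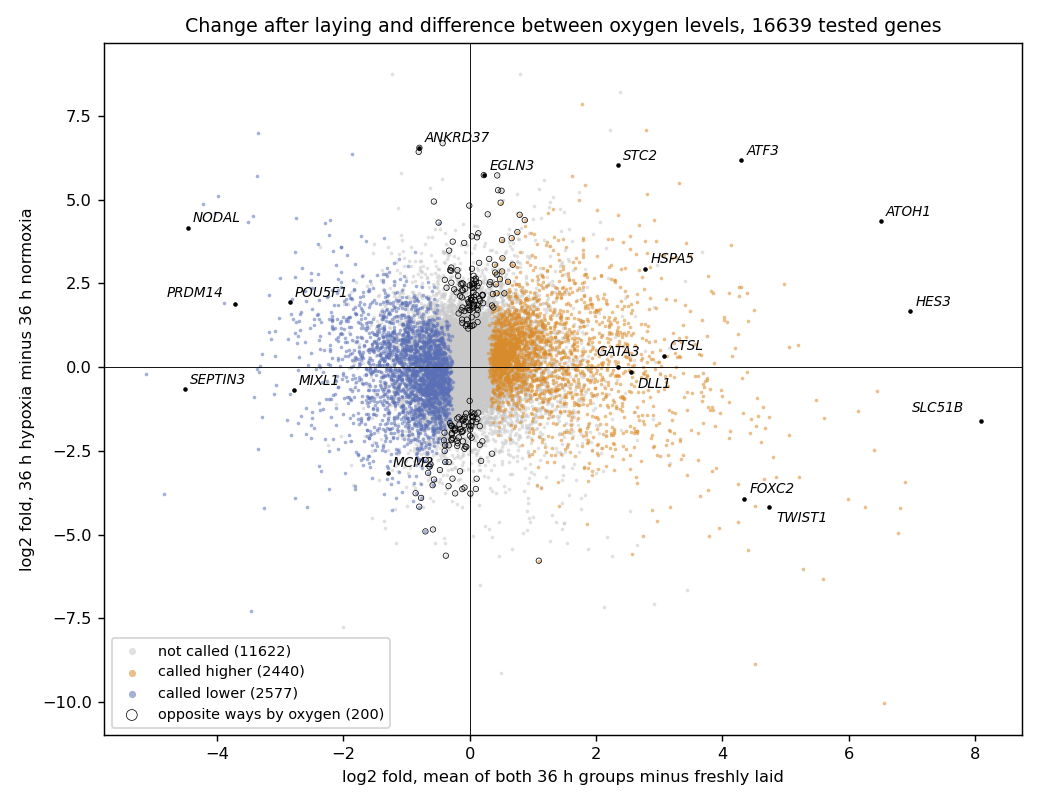
Each point is 1 of 16639 tested genes. The horizontal axis is the log2 fold of the mean of both 36 h groups against freshly laid, and the vertical axis the log2 fold of hypoxia against normoxia. Genes near the horizontal line, such as GATA3, DLL1 and CTSL, changed by about the same amount in both groups, while ringed genes near the vertical line moved in opposite ways.

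Many genes of the pluripotent epiblast fell, more of them in normoxia than in hypoxia. Of 19 tested genes of the pluripotency list, 9 fell and 1, the head and forebrain gene OTX2, rose, against 15.5% and 14.7% of all genes. The median log2 fold of the list was -0.57, beside -0.01 for all tested genes. In the separate arms 9 were lower in normoxia, where 16.1% of all genes were lower. In hypoxia 4 of the 19 were lower, a share near the 19.4% of all genes. The 4 that fell under both oxygen levels were PRDM14, POU5F1, DNMT3B and ETV4, while SOX2, SALL4 and LIN28A were among the 9 that passed in neither direction.

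PRDM14, a repressor that guards pluripotency and germ cell fate in mammals, had 104, 113, 75.1, 118 and 71.2 CPM in the freshly laid libraries. The incubated libraries had 2.17 to 21.5 CPM with a median of 5.39, so that even the highest stayed far below the lowest at laying. Its mean log2 fold was -3.72 ± 0.35 (SE; edgeR adjusted p = 4.39e-06), with -4.66 in normoxia and -2.77 in hypoxia. POU5F1, the core pluripotency factor, fell from 40.4, 40.7, 39.7, 64 and 70.5 CPM at laying to 1.12 to 6.07 CPM in normoxia and 7.06 to 21.1 CPM in hypoxia. All 3 groups were apart from each other, with hypoxia replicate 1, at 7.06 CPM, closest to the normoxia range, and the log2 fold was -2.85 ± 0.32 (edgeR adjusted p = 1.39e-05).

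DNMT3B, a methyltransferase that lays down new DNA methylation in the early embryo, was abundant at laying with 1631, 1617, 1319, 1395 and 1289.9 CPM. It fell to 286 to 567 CPM in normoxia and 239.6 to 783 CPM in hypoxia, below every freshly laid library in each case. The log2 fold of the mean was -1.76 ± 0.21 (edgeR adjusted p = 2.69e-05). ETV4, an ETS factor switched on by FGF signals, fell by a smaller amount, from 49.6 to 89.8 CPM to 25.5 to 49.1 CPM with a median of 34.5, a log2 fold of -1.03 ± 0.15 with edgeR adjusted p = 0.000154.

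Among genes of Nodal signalling and the primitive streak, 6 of 24 tested fell and 1, TBX6, rose, with a median of -0.16. The share that fell, 25.0%, stands beside 15.5% of all genes. In the separate arms 8 were lower and 4 higher in normoxia, where 16.1% of all genes were lower. In hypoxia 4 of the 24 were lower and 0 higher, beside 19.4% of all genes lower. GDF1, a ligand that pairs with Nodal, and MIXL1, a homeobox gene switched on by Nodal in the streak, fell under both oxygen levels. GDF1 had 227, 153, 234, 269 and 178 CPM at laying and 27.9 to 104 CPM with a median of 69.3 after incubation. MIXL1 had 37.5, 59.1, 115, 113 and 83.6 CPM at laying and 4.9 to 21.6 CPM with a median of 11.3 after it. Neither gene overlapped between laying and incubation, with log2 folds of -1.72 ± 0.23 (edgeR adjusted p = 6.95e-05) and -2.79 ± 0.34 (3.01e-05).

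Other members of the pathway kept higher levels in some or all hypoxia libraries. NODAL itself had 3.58, 3.51, 17.4, 10.3 and 8.35 CPM at laying, 0.0346 to 0.238 CPM in normoxia, and 0.0579, 0.109, 5.49, 2.6 and 0 CPM in the hypoxia libraries. Hypoxia replicate 3 was within the freshly laid range and replicate 4 just below it, while the other hypoxia libraries were near 0. The log2 fold of the mean was -4.46 ± 0.83 (edgeR adjusted p = 0.00091), and -5.09 without hypoxia replicate 3. FOXH1, the DNA-binding partner of Nodal-activated SMAD proteins, had 82 to 201 CPM at laying, 5.41 to 18.8 in normoxia and 67.8 to 149.8 in hypoxia. Its call in the mean (log2 fold -1.94 ± 0.27, edgeR adjusted p = 0.000109) thus came from normoxia, with -3.62 in normoxia and -0.27 in hypoxia. TBXT, EOMES, GSC and FGF8, further genes of the streak, did not pass for the mean.

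Most of the largest losses shared by both groups lay outside these lists. Genes named here as the largest losses had to show no overlap between laying and incubation. Their separation therefore follows from the choice. SEPTIN3, for a filament-forming GTPase known from neurons in mammals, fell from 9.74, 25.8, 10.6, 21.6 and 12 CPM to 0.265 to 1.83 CPM with a median of 0.612, a log2 fold of -4.51 ± 0.38 (edgeR adjusted p = 1.8e-06). TBX21, a T-box gene studied in T lymphocytes of mammals, had 40.1, 62.2, 84.5, 141 and 97.9 CPM at laying. It had 1.9 to 3.91 CPM in normoxia and 3.47, 3.12, 27.6, 20.7 and 1.19 CPM in hypoxia. Hypoxia replicates 3 and 4 kept more of it than the other 8 incubated libraries, and all 10 lay below all 5 at laying (log2 fold -3.88 ± 0.50, edgeR adjusted p = 5.23e-05).

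TNFAIP6, for a hyaluronan-binding protein, had 5.4, 7.36, 22.1, 5.31 and 6.56 CPM at laying, with replicate 3 well above the rest, and 0.0547 to 2.52 CPM with a median of 0.957 after incubation. The log2 fold was -3.34 ± 0.57 (edgeR adjusted p = 0.000455) and -2.74 without freshly laid replicate 3. SLC34A2, a sodium-phosphate cotransporter, fell from 67.6, 67.5, 63.5, 52.7 and 23.8 CPM to 3.29 to 11.9 CPM with a median of 6.21, by a log2 fold of -3.10 ± 0.27 (edgeR adjusted p = 2.19e-06). In both genes the lowest freshly laid library remained above the highest incubated one. PLXDC1, a transmembrane protein first described in tumour vessels, LHFPL1, a tetraspan membrane protein, and KIAA0319, a neuronal membrane protein in mammals, showed the same separation, with log2 folds of -3.15 ± 0.50, -2.73 ± 0.52 and -3.18 ± 0.38 and edgeR adjusted p of 0.000296, 0.00109 and 2.78e-05.

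Falls with the smallest p-values were of enzymes and regulators at higher levels. B4GALNT3, for a glycosyltransferase, fell from 91.4 to 124 CPM to 7.68 to 29.96 CPM with a median of 12.1 (log2 fold -2.72 ± 0.20, edgeR adjusted p = 5.95e-07). PLA2G4A, for the phospholipase that frees arachidonic acid from membranes, fell from 189.7 to 312 CPM to 30.3 to 144 CPM with a median of 57.3 (log2 fold -1.89 ± 0.17, edgeR adjusted p = 2.87e-06). PTGR1, for a reductase that breaks down prostaglandins and leukotrienes, also fell, from 70.03, 59.2, 68.3, 62.1 and 48.9 CPM to 14.9 to 23.9 CPM with a median of 20.6. It is the gene of this group with the closest match between arms, -1.64 in normoxia and -1.66 in hypoxia, and the difference between hypoxia and normoxia was -0.02 ± 0.16 (mean -1.65 ± 0.13, edgeR adjusted p = 1.14e-06). PPP1R3B, which targets a phosphatase to glycogen, the zinc finger gene ZNF687 and the ubiquitin ligase gene RNF180 fell in both groups too, each by more in normoxia, with mean log2 folds of -1.73 ± 0.14, -1.66 ± 0.13 and -2.70 ± 0.23 and edgeR adjusted p of 8.39e-07, 5.95e-07 and 1.8e-06.

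Several signalling and metabolic genes were also lower under both oxygen levels. HK2, for the hexokinase that starts glycolysis, fell from 130.2 to 239.7 CPM to 20.9 to 40.8 in normoxia and 27.7 to 145 in hypoxia, although it stands in the lists of glycolysis and of HIF targets. Hypoxia replicate 5, at 145 CPM, overlapped the freshly laid range, and the log2 fold was -2.03 ± 0.30 (edgeR adjusted p = 0.000171). Both FGF receptors FGFR1 and FGFR3 fell, with log2 folds of -0.96 ± 0.15 and -0.99 ± 0.20 (edgeR adjusted p = 0.000218 and 0.00145).

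HES4, a repressor downstream of Notch, had a log2 fold of -1.58 ± 0.24 (edgeR adjusted p = 0.000183), and LOXL1, a collagen and elastin cross-linking enzyme, of -1.92 ± 0.23 (2.91e-05). WNT8B, a Wnt ligand of the forebrain, fell from 1.81 to 4.08 CPM to 0.248 to 1.07 CPM with a median of 0.439 (log2 fold -2.38 ± 0.37, edgeR adjusted p = 0.000249). In the germline list the changes were mixed, 4 genes higher and 4 lower of 20 tested. These shares are near those of all genes, 14.7% higher and 15.5% lower. The count of lower germline genes was 2 without freshly laid replicate 2. PIWIL2, which silences transposons through small RNAs, fell from 62.7, 71.2, 39.2, 94.6 and 60.8 CPM to 9.02 to 29.5 CPM with a median of 18.9, while DDX4, the germ cell helicase gene also called vasa, rose from 16.9, 15, 13.9, 13.1 and 13.4 CPM to 17 to 53.9 CPM with a median of 29.99. Both changed under both oxygen levels, with log2 folds of -1.76 ± 0.23 and 1.12 ± 0.20 and edgeR adjusted p of 6.48e-05 and 0.000645.

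**Figure D3:**
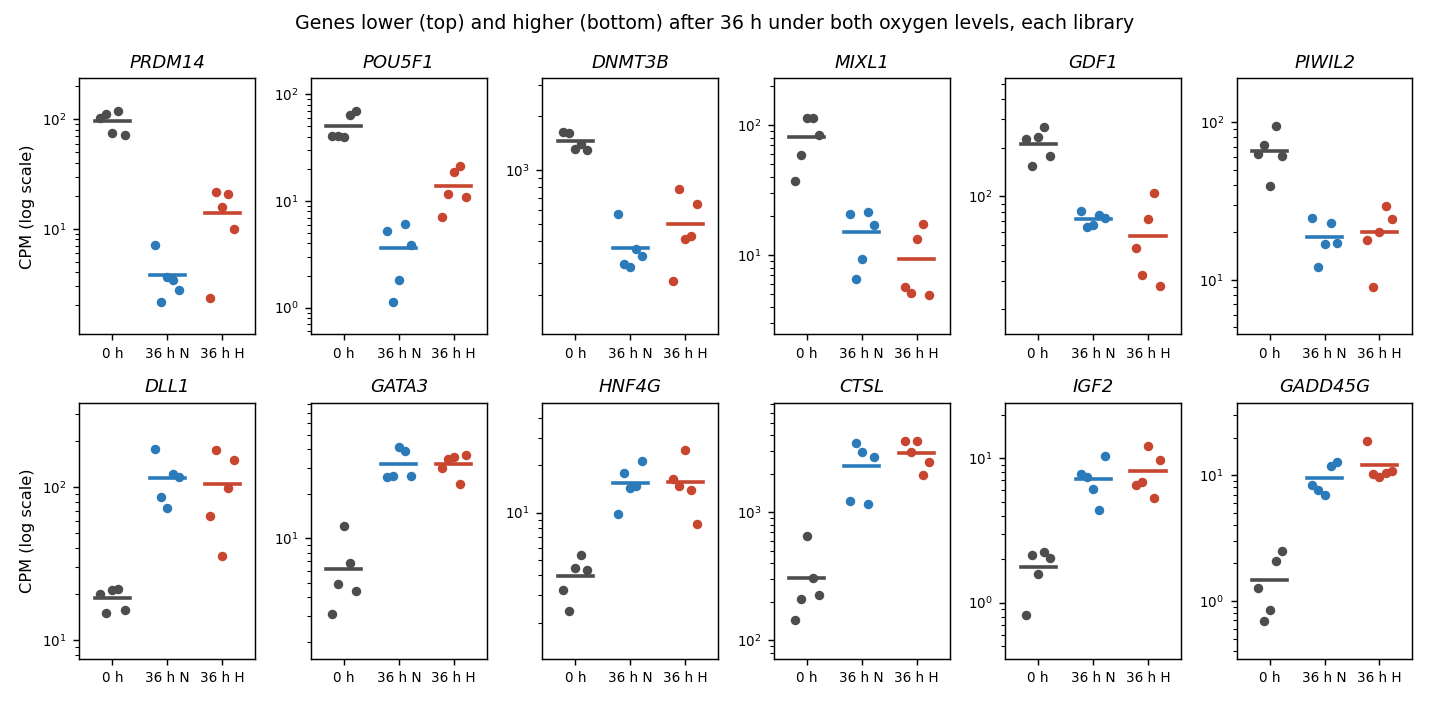
CPM on a log scale in each library for 6 genes that were lower (top row) and 6 that were higher (bottom row) after 36 h under both oxygen levels. Points are libraries, horizontal bars are group means, 0 h is freshly laid, N is normoxia and H is hypoxia. In each of the 12 genes no incubated library reaches the range of the 5 freshly laid ones.

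Many genes of the forming body rose over the same 36 h, in some lists in both groups and in others mostly in normoxia. Of 27 tested neural genes, 13 were higher and 2 lower, with a median log2 fold of 1.56. Of all tested genes 14.7% were higher and 15.5% lower, the background for the list counts that follow. The list median was 1.60 in normoxia and 1.36 in hypoxia. The summed level of the 27 genes overlapped between groups, at 310 to 604 CPM at laying, 298 to 436 in normoxia and 329 to 549 in hypoxia. Under both oxygen levels 7 of the 13 rose, beside 2.03% of all genes. The 7 were IRX1, IRX2, IRX3, OTX1, SIX3, NKX2-2 and NKX6-1, which pattern the neural plate from the forebrain to the ventral neural tube.

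IRX1, an Iroquois homeobox gene, had 0, 0.23, 0.241, 0.307 and 0.459 CPM at laying. All incubated libraries were higher, at 6.88 to 9.84 CPM in normoxia and 1.96 to 4.4 CPM in hypoxia (log2 fold of the mean 4.33 ± 0.47, edgeR adjusted p = 1.12e-05). IRX2, of the same family, went from 0.251, 0.173, 0, 0 and 0.184 CPM to 1.27 to 12.4 CPM with a median of 4.4 (log2 fold 5.05 ± 0.58, edgeR adjusted p = 1.75e-05). Both were higher in normoxia than in hypoxia, by log2 differences of -1.38 and -2.04 for hypoxia minus normoxia. IRX3 and SIX3, a forebrain and eye gene, differed less, by 0.32 ± 0.42 and -0.19 ± 0.61, and rose by 2.46 ± 0.42 and 3.38 ± 0.65 (edgeR adjusted p = 0.000478 and 0.0012). NKX2-2 had no count in any freshly laid library and was at least 39.9-fold higher in normoxia and at least 6.62-fold higher in hypoxia, taking 3 counts over the freshly laid group as the floor.

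HES3, SKOR1 and ATOH1, regulators of neural genes in other vertebrates, were almost silent at laying. HES3, a repressor of the Notch-related HES family in neural progenitors, had 2 counts over the 5 freshly laid libraries, both in replicate 5, and its log2 fold of 6.98 was 9.08 without that library. It reached 0.667 to 3.08 CPM in normoxia and 3.18 to 8.96 CPM in hypoxia, which is a ratio of summed counts of 92.4 (95% interval 25.3 to 767) and 285 (78.5 to 2359). SKOR1, a corepressor known from spinal neurons, also had 2 counts at laying and rose under both oxygen levels, with ratios of 143 in normoxia (interval 39.2 to 1182) and 56.3 in hypoxia (15.2 to 471). ATOH1, a proneural factor of sensory hair cells and hindbrain neurons, had no count at laying. It was at least 3.58-fold higher in normoxia and at least 81.7-fold higher in hypoxia, where the 5 libraries had 2.66, 4.7, 1.7, 2.23 and 1.79 CPM. These intervals cover counting error only.

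In the list of presomitic mesoderm and somites 12 of 20 tested genes were higher and 1 lower, with a median of 2.11 in normoxia and 0.50 in hypoxia. DLL1, the Notch ligand that times segmentation, had 19.9, 15, 21.1, 21.5 and 15.6 CPM at laying. It had 177, 85.5, 72.7, 122 and 116 CPM in normoxia and 64.6, 173, 35.2, 98 and 149 CPM in hypoxia. The incubated groups overlapped each other throughout and neither overlapped laying, with a log2 fold of the mean of 2.55 ± 0.33 (edgeR adjusted p = 4.84e-05) and a difference between oxygen levels of -0.14 ± 0.33. MYF5, an early muscle determination factor, and MEOX2, a somite homeobox gene, rose under both oxygen levels too, at low levels of at most 4.41 and 1.35 CPM. Their log2 folds were 3.72 ± 0.72 and 3.68 ± 0.74 (edgeR adjusted p = 0.00126 and 0.0015), and 4.43 for MYF5 without freshly laid replicate 3 and 4.29 for MEOX2 without replicate 2.

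The other somite calls rested more on normoxia. FOXC2, a forkhead gene of the paraxial mesoderm, had 1.62 to 8.62 CPM in normoxia and 0.126 to 0.463 CPM in hypoxia against 0 to 0.126 CPM at laying. The lowest incubated library, hypoxia replicate 3, was barely above the highest freshly laid one, and the log2 folds were 6.31 in normoxia and 2.38 in hypoxia (mean 4.35 ± 0.67, edgeR adjusted p = 0.000215). Over the whole list of 20, 12 members were higher than at laying in normoxia and 5 in hypoxia, each in its own comparison. Of all tested genes 15.2% were higher in normoxia and 20.9% in hypoxia.

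Along the border of the neural plate 12 of 27 tested genes were higher and 1 lower. In the separate arms 13 were higher in normoxia, beside 15.2% of all genes. In hypoxia 6 were higher, a share near the 20.9% of all genes. GATA3, a zinc finger gene of the border and the surface ectoderm, had the smallest adjusted p of the list, with 3.08, 4.89, 12.1, 6.8 and 4.41 CPM at laying, 25.8, 26.4, 41.1, 38.6 and 26.4 CPM in normoxia and 29.7, 34.2, 35.4, 23.4 and 36.6 CPM in hypoxia. Both incubated groups overlapped broadly, above all freshly laid libraries, and the log2 folds were 2.34 in normoxia and 2.35 in hypoxia (mean 2.35 ± 0.28, edgeR adjusted p = 2.67e-05). TWIST1, a regulator of crest and mesoderm migration, rose under both levels but mostly in normoxia, from at most 0.184 CPM at laying to 4.96 to 8.51 CPM in normoxia and 0.126 to 0.521 CPM in hypoxia. Its mean log2 fold of 4.74 ± 0.64 (edgeR adjusted p = 7.82e-05) became 6.24 without freshly laid replicate 5, one of 2 freshly laid libraries with any count.

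Genes of the main body axis followed. Of 14 tested HOX and CDX genes 4 were higher and none lower, beside 14.7% and 15.5% of all genes, with a median of 1.42. A further 28 list members were not tested for want of counts. HOXB3 rose from 0, 0, 0.0603, 0.153 and 0.0459 CPM to 0.463 to 4.33 CPM with a median of 1.25 (log2 fold 4.57 ± 0.71, edgeR adjusted p = 0.000237), and 5.4 without freshly laid replicate 4. HOXA3 rose by 3.08 ± 0.41 and CDX2, a caudal gene that sets posterior HOX expression, by 2.19 ± 0.37 (edgeR adjusted p = 6.22e-05 and 0.000438). The count of 4 became 7 without freshly laid replicate 1, and it was 7 by DESeq2 and 6 by limma-voom.

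TBX1, a T-box gene of the pharyngeal region, was also low at laying. It was higher in all incubated libraries, as the rule that named it required. It went from 0, 0.115, 0.181, 0.153 and 0.0918 CPM to 0.572 to 3.62 CPM with a median of 1.59. Hypoxia minus normoxia was 0.11 ± 0.55, with a mean log2 fold of 3.86 ± 0.64 (edgeR adjusted p = 0.000377).

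In endoderm 8 of 21 tested genes were higher and 1 lower, beside 14.7% and 15.5% of all genes. Under both oxygen levels 4 rose, among them FOXA1, HNF4G and APOA1, beside 2.03% of all genes. The summed level of the 21 genes overlapped between groups, at 1300 to 2073 CPM at laying, 1234 to 1591 in normoxia and 1221 to 2480 in hypoxia. HNF4G, a nuclear receptor of gut and yolk sac, had 3.2, 2.36, 4.47, 5.42 and 4.32 CPM at laying and 8.42 to 24.9 CPM with a median of 14.7 after incubation, a log2 fold of 1.98 ± 0.28 (edgeR adjusted p = 0.000122) with 1.97 in normoxia and 1.99 in hypoxia. FOXA1, a pioneer factor of the gut tube, rose by 2.42 ± 0.31 (edgeR adjusted p = 5.35e-05). Among heart and lateral mesoderm genes 9 of 23 were higher and none lower, against the same shares of all genes. GATA5, needed for the heart and endoderm, rose from 23.4, 19.95, 35, 33.8 and 44.8 CPM to 71.4 to 264 CPM with a median of 98 (log2 fold 1.90 ± 0.24, edgeR adjusted p = 3.96e-05). OSR1, of the nephric and lateral mesoderm, and BMP2, a ligand of heart induction, rose by 3.24 ± 0.65 and 1.80 ± 0.38 (edgeR adjusted p = 0.00158 and 0.00216).

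Yolk sac and plasma protein genes had the highest share of rises among the tissue lists, with 17 of 21 tested members higher and 1 lower. The median log2 fold was 2.88, and 14.7% of all genes were higher and 15.5% lower. The summed level of the 21 genes was 118 to 233 CPM in the freshly laid libraries, 258 to 1874 CPM in normoxia and 419 to 1826 CPM in hypoxia. No incubated library overlapped laying, and within each incubated group the sum varied widely.

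Abundant members show the spread within a group, with levels given as the mean and SD of 5 libraries. FABP1, a fatty acid carrier of gut and liver, had 24.7 ± 3.65 CPM at laying, 275 ± 264 in normoxia and 91.3 ± 74.7 in hypoxia. CLU, for the secreted chaperone clusterin, had 79.6 ± 38.1, 151 ± 66 and 415 ± 172 CPM. FGA, for a fibrinogen chain, had 0.659 ± 0.587 CPM at laying, 62.9 ± 72.4 in normoxia and 3.55 ± 3.81 in hypoxia, where the change was far smaller than in normoxia. These 3 genes were chosen after their values were seen.

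SLC51B, a subunit of the transporter that carries bile acids and steroids out of gut cells, had 1 count at laying over 5 libraries and 5.3, 11.8, 10.9, 0.621 and 12.7 CPM in normoxia and 2.61, 0.984, 7.19, 2.73 and 0.133 CPM in hypoxia. The 1 count was in replicate 3, without which the mean log2 fold of 8.09 was 9.55, and the ratio of summed counts was 775 in normoxia (95% interval 139 to 30642) and 246 in hypoxia (43.7 to 9768). APOA1, the main protein of high-density lipoprotein, rose from 8.42, 20.9, 22.7, 10.8 and 6.29 CPM to 21 to 446 CPM with a median of 115 (log2 fold 3.31 ± 0.62, edgeR adjusted p = 0.000919). Its lowest incubated library lay just under the highest freshly laid one.

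CTSL, for the lysosomal protease cathepsin L, had 143, 208, 655, 305 and 224 CPM at laying and 1160.3 to 3575 CPM with a median of 2828 after incubation. The highest value at laying, in replicate 3, was still below the lowest incubated one, and the log2 fold was 3.08 ± 0.38 (edgeR adjusted p = 3.01e-05) with 2.91 in normoxia and 3.24 in hypoxia. NPC2, which exports cholesterol from lysosomes, and CTSZ, another cathepsin, rose by 1.92 ± 0.38 and 1.73 ± 0.41 (edgeR adjusted p = 0.0013 and 0.00448). The list of lysosome and yolk digestion genes held 10 higher and 3 lower genes of 31, beside 14.7% and 15.5% of all genes. Its lower members included the sialidase gene NEU2, at 5.98 to 12.2 CPM at laying and 0.238 to 4.29 CPM with a median of 0.641 after it (log2 fold -3.19 ± 0.43, edgeR adjusted p = 7.8e-05). The amount of yolk sac tissue taken with an embryo is not recorded, and its part in these rises was not tested. Leaving out any 1 library gave 12 to 18 higher genes in the yolk sac list, and 14 without hypoxia replicate 3, which had the most APOA1 and CTSZ. By limma-voom 9 of the 21 were higher. The 1 lower gene, for prothrombin, lost its call when any of 12 single libraries was left out.

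Epidermal genes rose as well. TP63, the master regulator of the epidermis, went from 0.44, 0.575, 0.603, 0.613 and 1.74 CPM to 14.2 to 28.1 CPM in normoxia and 1.49 to 8.92 CPM in hypoxia. CERS3, which makes the very long ceramides of the skin barrier, went from 0.126, 0.173, 0.121, 0.307 and 0.367 CPM to 7.49 to 28.1 CPM and 1.39 to 3.82 CPM. All but 1 hypoxia value of TP63 and all of CERS3 lay above laying, which the rule that named CERS3 required of it. Both genes were higher in normoxia than in hypoxia (log2 folds of the mean 3.38 ± 0.48 and 4.80 ± 0.46, edgeR adjusted p = 0.00012 and 4.97e-06). In the surface ectoderm list 8 of 24 genes were higher and 3 lower, among the latter the epithelial adhesion gene EPCAM, at -0.67. These shares, 33.3% and 12.5%, stand beside 14.7% and 15.5% of all genes.

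Other rises were nearly equal in both groups. IGF2, the growth factor of fetal tissues, rose from 0.817, 2.13, 1.57, 2.25 and 2.02 CPM to 4.39 to 12.1 CPM with a median of 7.13 (log2 fold 2.11 ± 0.32, edgeR adjusted p = 0.000186; 2.03 in normoxia and 2.19 in hypoxia). TET2, which oxidises methylated cytosine, rose from 0.628, 0.863, 1.27, 3.27 and 1.65 CPM to 8.55 to 30.1 CPM with a median of 11.1 (log2 fold 3.13 ± 0.41, edgeR adjusted p = 6.35e-05), while DNMT3B of the same list fell as above. GADD45G, a growth arrest gene, rose from 1.26, 0.69, 0.845, 2.1 and 2.48 CPM to 6.99 to 18.9 CPM with a median of 10.4 (log2 fold 2.85 ± 0.34, edgeR adjusted p = 2.78e-05).

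In none of these 3 genes did the groups at 36 h overlap laying. FN1, for fibronectin, the matrix on which mesoderm cells move, rose by 1.03 ± 0.21 (edgeR adjusted p = 0.0015), from 792, 310.5, 650.0, 626 and 664 CPM to 908 to 1823 CPM with a median of 1175. HIP1R, which links clathrin coats to actin, rose by 1.47 ± 0.15 (edgeR adjusted p = 6.07e-06), with 1.52 in normoxia and 1.42 in hypoxia. UBE2O, a ubiquitin-conjugating enzyme that clears unassembled ribosomal proteins in red cells of mammals, rose from 16.4 to 22.5 CPM to 29.99 to 43.8 in normoxia and 68.8 to 83.1 in hypoxia (log2 fold of the mean 1.41 ± 0.12, edgeR adjusted p = 2.3e-06).

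Of 33 tested nuclear genes of oxidative phosphorylation 12 were higher and 2 lower, beside 14.7% and 15.5% of all genes. The list median was 0.29 for the mean, 0.58 in normoxia and 0.18 in hypoxia. NDUFS4 and NDUFA7, subunits of respiratory complex I, rose under both oxygen levels by log2 folds of 0.72 ± 0.13 and 0.78 ± 0.15 (edgeR adjusted p = 0.000805 and 0.000983). NDUFS4 had 26.1, 21.8, 31.2, 22.8 and 28.4 CPM at laying, 34.5, 39.8, 42.7, 39.9 and 53.5 in normoxia and 50.8, 41.3, 43.2, 39.9 and 43.3 in hypoxia, so every incubated library was above every freshly laid one.

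For the mean, some lists had calls in 1 direction only, namely HOX and CDX, heart, clock, immediate early, stress response and ribosomal genes with none lower and mitosis with none higher. In the first 6 of these no gene was lower at an unadjusted p under 0.05 in edgeR, and DESeq2 and limma-voom called 0 lower. In mitosis 2 genes were higher at an unadjusted p under 0.05, 2 by DESeq2 and 0 by limma-voom.

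**Figure D4:**
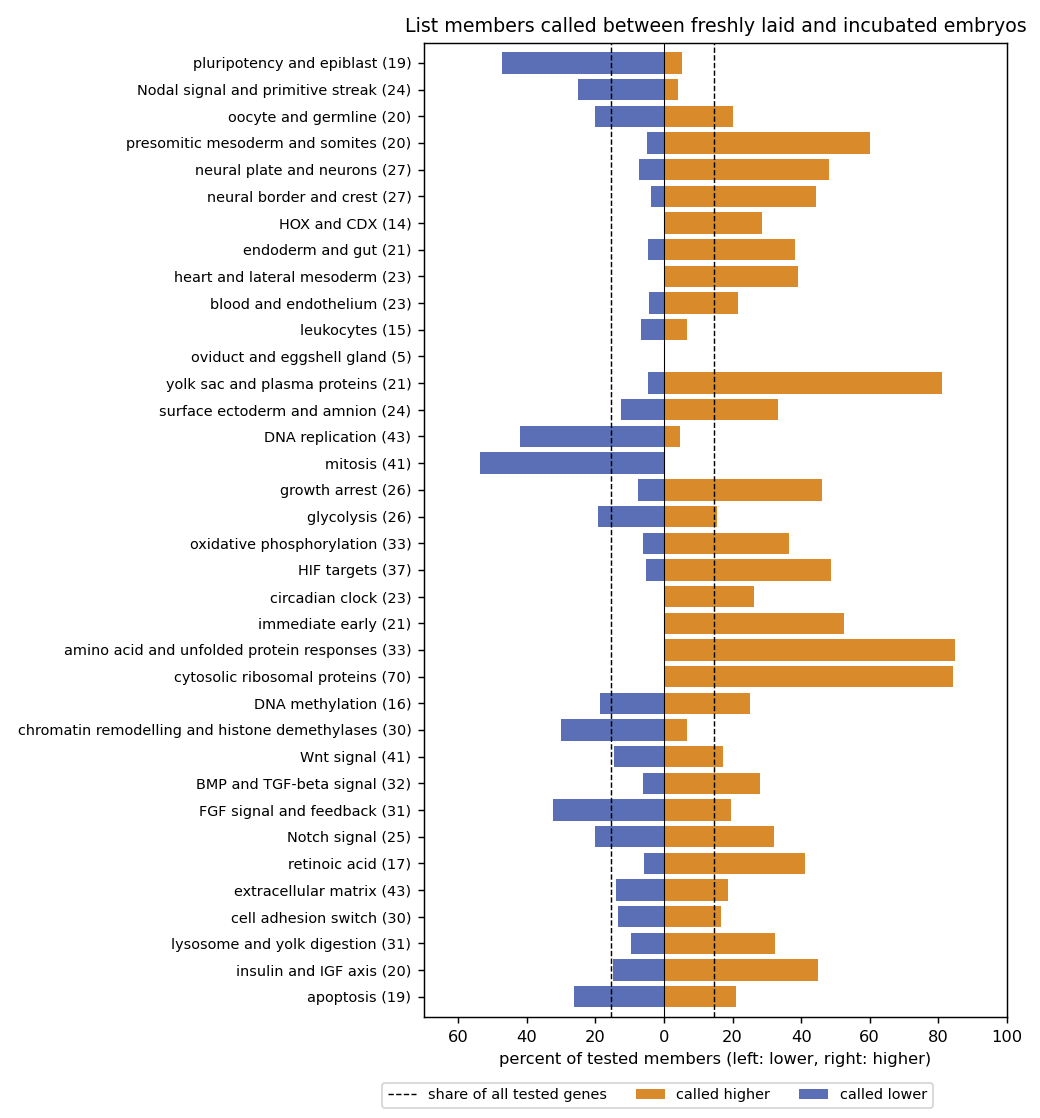
Percent of the tested members of each of 36 gene lists called lower (left) and higher (right) between freshly laid embryos and the mean of both incubated groups; the number tested is in brackets. Dashed lines mark the shares among all tested genes, 15.5% lower and 14.7% higher. Shares called higher reach over 80% for yolk sac, ribosomal and stress response genes, and shares called lower are highest for mitosis, pluripotency and DNA replication.

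Signalling pathways changed member by member. In the Wnt list 7 of 41 tested genes were higher and 6 lower, shares near those of all genes, and 4 were higher without freshly laid replicate 2 or 4. FZD7, a Wnt receptor of the pluripotent epiblast, fell for the mean, at -1.19 ± 0.13 (edgeR adjusted p = 1.39e-05), with -0.45 in normoxia and -1.94 in hypoxia. In the BMP and TGF-beta list 9 of 32 were higher and 2 lower, beside 14.7% and 15.5% of all genes. ID3, a direct target of BMP signalling, rose under both levels from 208 to 326 CPM to 369.8 to 594 CPM with a median of 397 (log2 fold 0.73 ± 0.13, edgeR adjusted p = 0.000649). The receptor gene TGFBR2 was higher by 0.83 ± 0.17 (0.00153), and the ligand gene BMP7 lower, at -1.12 ± 0.27 (0.00553).

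In the FGF list 10 of 31 genes were lower, among them the receptors above, the target ETV4 and the feedback inhibitors SPRY1, SPRY2 and IL17RD, and 6 were higher, with a median of -0.05. In the Notch list 8 of 25 were higher, with DLL1 first by p-value, and 5 lower, with HES4 first. Retinoic acid genes were higher in 7 of 17 and lower in 1. Beside these FGF, Notch and retinoic acid counts, 14.7% of all genes were higher and 15.5% lower. RDH10, which starts retinoic acid synthesis, was higher mainly in normoxia (79 to 104 CPM, against 20.1 to 33.4 at laying and 25.1 to 35.7 in hypoxia), with a mean log2 fold of 1.10 ± 0.14 (edgeR adjusted p = 4.07e-05). RARA, a retinoic acid receptor, was higher by 1.11 ± 0.24 (0.00301).

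Adhesion and matrix lists were mixed, with 5 of 30 adhesion genes higher and 4 lower, and 8 of 43 matrix genes higher and 6 lower. These shares, 16.7% and 13.3% for adhesion and 18.6% and 14% for matrix, are near those of all tested genes (14.7% and 15.5%). Without freshly laid replicate 2 or normoxia replicate 2, 3 adhesion genes were higher. CDH2, for N-cadherin, had 699, 542, 920.4, 659 and 433 CPM at laying and 98.2 to 442 CPM with a median of 351 after incubation, a log2 fold of -1.12 ± 0.29 (edgeR adjusted p = 0.00802) and hypoxia replicates 2 and 5 were lowest. ITGA6, an integrin subunit of the epiblast, fell for the mean at -1.05 ± 0.20 (0.00112). PCDH8, a protocadherin of mesoderm movement, rose under both levels, from 2.39, 5.52, 7.48, 6.34 and 4.64 CPM to 7.35 to 16.2 in normoxia and 39.4 to 53.6 in hypoxia (log2 fold 2.16 ± 0.25, edgeR adjusted p = 1.86e-05).

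Stress response genes were higher for the mean chiefly through hypoxia. Of 33 genes that answer to amino acid shortage or to unfolded protein in the endoplasmic reticulum, 28 were higher and none lower, with medians of 0.48 in normoxia and 3.07 in hypoxia. In the separate arms 11 were higher and 3 lower in normoxia, beside 15.2% and 16.1% of all genes. In hypoxia 31 were higher and 1 lower, beside 20.9% and 19.4% of all genes. The rule for both levels passed 5 upward, beside 2.03% of all genes, and 1 moved in opposite ways. A model with only 2 groups, laying and incubation, left 17 of the 33 genes higher. There the difference between oxygen levels counts as spread, and the folds also differ, since all incubated libraries share 1 mean. HSPA5, the main chaperone of the endoplasmic reticulum, had 538, 571, 690.4, 524 and 563 CPM at laying. It rose to 1442, 1370.2, 1423, 1523 and 1427 CPM in normoxia and to 11080.5, 12371, 5405, 5586 and 20459 CPM in hypoxia. The 3 groups did not overlap, with log2 folds of 1.32 ± 0.27 and 4.25 ± 0.31 against laying and 2.78 ± 0.27 for the mean (edgeR adjusted p = 4.84e-06). The rule that named HSPA5 required the freshly laid libraries to lie apart from the incubated ones.

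SDF2L1, a cofactor of the same chaperone, rose about equally in both, with 1.80 in normoxia and 2.08 in hypoxia (mean 1.94 ± 0.28, edgeR adjusted p = 0.00012). XBP1, the transcription factor of the response, rose from 42.4 to 61.7 CPM to 76.1 to 96.5 and 257 to 519.5 CPM (mean log2 fold 1.82 ± 0.17, edgeR adjusted p = 4.49e-06). The co-chaperone gene DNAJB9 was higher by 2.08 ± 0.19 (4.33e-06). ATF3, a stress-induced transcription factor, had 0.204 to 0.784 CPM at laying, 0.868 to 2.29 CPM in normoxia and 60.6 to 120.4 CPM in hypoxia (mean log2 fold 4.30 ± 0.31, edgeR adjusted p = 5.95e-07). TAT, which breaks down tyrosine, rose by log2 folds of 1.63 in normoxia and 4.91 in hypoxia, for a mean of 3.27 ± 0.33 (edgeR adjusted p = 6.55e-06).

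Cytosolic ribosomal protein genes were higher for the mean in 59 of 70 and lower in none, by a small amount, a median log2 fold of 0.46. The medians were 0.27 in normoxia and 0.67 in hypoxia. In normoxia 7 of the 70 were higher, a share below the 15.2% of all genes. In hypoxia 68 were higher, beside 20.9% of all genes, and 0 passed the rule for both oxygen levels. RPL35A had 510.0, 552, 602, 436 and 652 CPM at laying, 637, 716, 834, 687 and 880.3 in normoxia and 907, 741, 983, 1046 and 928 in hypoxia (mean log2 fold 0.60 ± 0.12, edgeR adjusted p = 0.0018). Only normoxia replicate 1 overlapped the freshly laid range, and RPL36 gave a like value of 0.57 ± 0.12 (0.00203). The count of 59 fell to 36 with scaling by totals only, to 38, 36 and 36 without freshly laid replicates 1, 2 and 4, and to 37 with neighbouring normoxia libraries summed. The model with 2 groups left 12.

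Cell division genes were lower for the mean mainly through hypoxia. Of 41 mitosis genes 22 were lower and none higher, with medians of 0.26 in normoxia and -1.60 in hypoxia. Of 43 DNA replication genes 18 were lower and 2 higher, with medians of 0.24 in normoxia and -0.79 in hypoxia. In the arms, 7 mitosis genes were higher and 1 lower in normoxia than at laying, against 0 and 38 in hypoxia. The 7 are near the share of all genes higher in normoxia, 15.2%, while 19.4% of all genes were lower in hypoxia. MCM2, a subunit of the replicative helicase, had 129.8, 172, 134, 147 and 242 CPM at laying, 209, 182, 153, 265 and 193 in normoxia and 25.7, 25.3, 18, 13 and 30.2 in hypoxia. The normoxia libraries lay within or near the freshly laid range and the hypoxia libraries lay far below it, with log2 folds of 0.28 in normoxia and -2.88 in hypoxia (mean -1.30 ± 0.18, edgeR adjusted p = 0.00012).

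MCM10, a replication initiation factor, NCAPH, of the condensin complex, and TOP2A, the topoisomerase that untangles chromosomes, had the same pattern, with means of -0.96 ± 0.14, -0.79 ± 0.13 and -1.34 ± 0.28 (edgeR adjusted p = 0.00019, 0.000401 and 0.0021). KIF11, the kinesin that separates spindle poles, was lower than at laying in each group's own comparison, from 298 to 454 CPM to 201 to 249 in normoxia and 83.5 to 254 in hypoxia (mean -1.11 ± 0.20, edgeR adjusted p = 0.000807). The model with 2 groups left 2 of 41 mitosis genes and 2 of 43 replication genes lower. Of 26 growth arrest genes 12 were higher and 2 lower. CDKN1B, an inhibitor of cyclin-dependent kinases, rose under both oxygen levels, from 3.58, 3.91, 4.28, 3.68 and 2.8 CPM to 6.7 to 14.8 CPM with a median of 9.73 (log2 fold 1.44 ± 0.19, edgeR adjusted p = 6.84e-05), while CDKN1A, a related inhibitor, was higher mostly in hypoxia, at 0.78 in normoxia and 4.31 in hypoxia (mean 2.54 ± 0.32, edgeR adjusted p = 4.07e-05).

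Chromatin genes were lower more often than higher for the mean, 9 against 2 of 30 tested, beside 15.5% and 14.7% of all genes. This came from normoxia, where 15 were lower than at laying and 0 higher. In hypoxia 12 were higher and 5 lower, beside 20.9% and 19.4% of all genes, and 3 members moved in opposite ways. The medians were -0.44 in normoxia and 0.03 in hypoxia. Subunits of the Polycomb complex that methylates histones are among the genes lower for the mean. JARID2, its recruiting subunit, had 188, 212, 239, 199 and 131 CPM at laying, 42 to 52.8 in normoxia and 116 to 198 in hypoxia, so that normoxia was below laying and hypoxia overlapped it. EZH2, its catalytic subunit, had 249.7 to 308 CPM at laying, 203 to 244 in normoxia and 95.4 to 131 in hypoxia, so that all 10 incubated libraries were below laying and hypoxia lay lowest. Their mean log2 folds were -1.17 ± 0.14 and -0.78 ± 0.10 (edgeR adjusted p = 2.69e-05 and 3.99e-05). TET3, of the DNA methylation list, was higher at 1.65 ± 0.18 (9.85e-06), with 0.40 in normoxia and 2.90 in hypoxia.

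**Figure D5:**
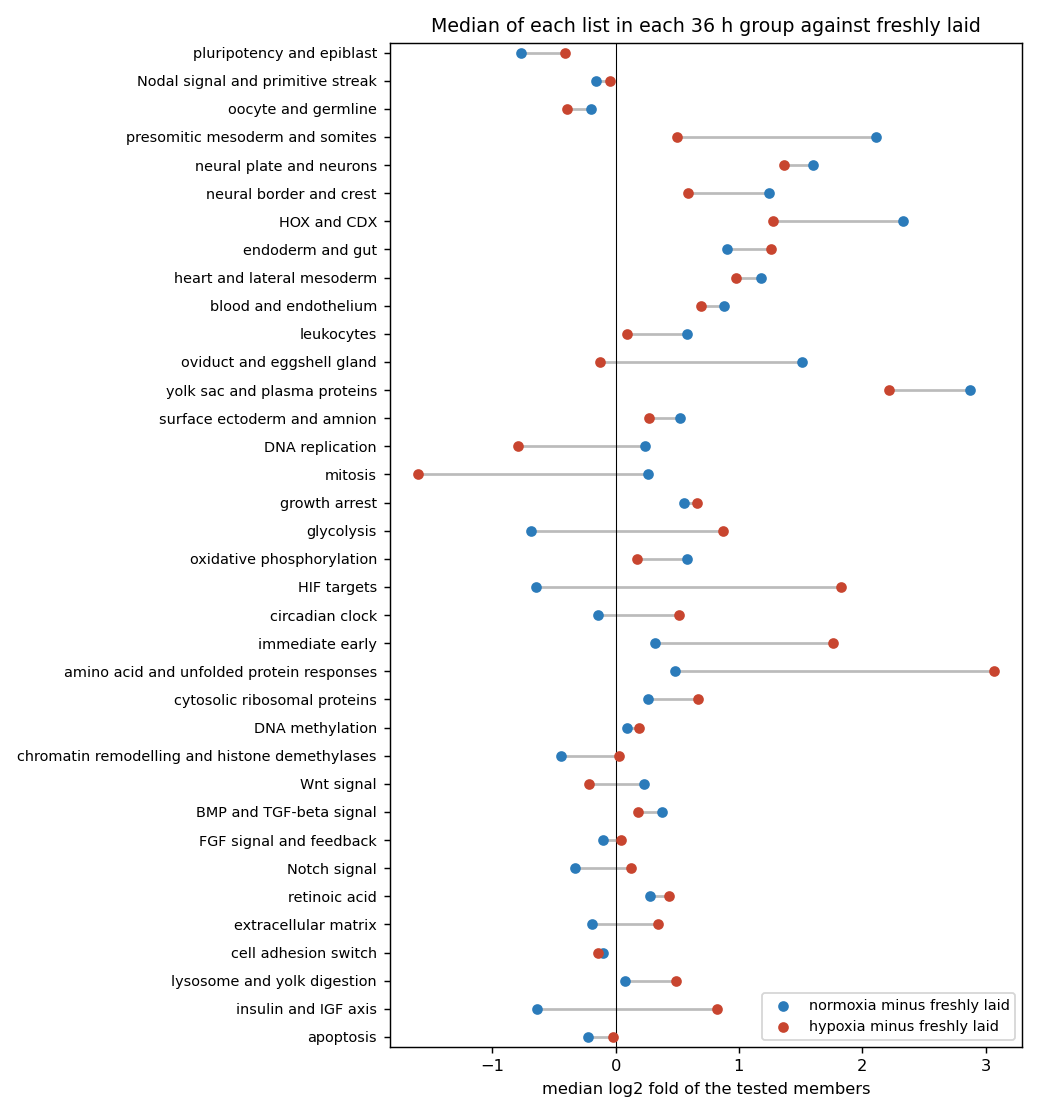
Median log2 fold of the tested members of each of 36 gene lists, in normoxia against freshly laid and in hypoxia against freshly laid. Both points share the freshly laid libraries. The points are close together for neural, endoderm and heart genes and far apart for mitosis, glycolysis, HIF targets and stress responses.

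A small share of genes moved in opposite ways under the oxygen levels, and most of these were not called for the mean. Of the 200 genes that moved in opposite ways, 115 (0.691%) were higher in hypoxia and lower in normoxia than at laying and 85 (0.511%) the reverse, and 162 of the 200 were not called for the mean. The count of 200 was 109 without freshly laid replicate 3, 123 without replicate 4, and 125 to 133 without any 1 of the 5 normoxia libraries. The 37 tested targets of HIF, the transcription factor stabilised when oxygen is low, held 12 of them, with list medians of -0.64 in normoxia and 1.83 in hypoxia. EGLN3, a prolyl hydroxylase induced by HIF, had 82.3, 62.9, 105, 107 and 69.6 CPM at laying, 10.7, 14, 17.9, 11.5 and 14.2 in normoxia and 839, 714, 614, 762 and 699.9 in hypoxia. No group overlapped another, and the mean log2 fold was 0.22 ± 0.15 (edgeR adjusted p = 0.269).

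The other 5 genes named for the widest opposite moves had the same order, normoxia below laying below hypoxia. DDIT4, an inhibitor of mTOR signalling, had 38.2 to 58.2, 149.9 to 395 and 2295 to 3018 CPM in that order. ANKRD37, an ankyrin repeat gene induced by HIF, had 2.59 to 8.68, 49.7 to 179 and 353 to 683 CPM. CA9, a carbonic anhydrase, had 0.868 to 1.94, 2.45 to 8.68 and 19.8 to 65.1 CPM. In each of these the groups were fully apart. BHLHE41, a repressor of the circadian clock, and ITGB7, an integrin subunit, had hypoxia minus normoxia log2 differences of 5.26 ± 0.44 and 4.82 ± 0.36. None of the 6 was called for the mean in edgeR, although DDIT4 passed without freshly laid replicate 3 (0.0275), and ANKRD37 passed without freshly laid replicate 1 or 5 or normoxia replicate 5 (0.0327 to 0.0413), by DESeq2 (0.0368) and with scaling by totals only (0.0254). Where ANKRD37 was called it was lower than at laying.

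A called mean could also cover arms that differed in size or direction. STC2, BHLHE40, LOX, SLC2A1 and PKM, given here, did not pass the rule for opposite changes. The HIF target list had 18 higher and 2 lower genes, but 28 of its members were higher than at laying in hypoxia, and in normoxia 1 was higher and 17 lower. STC2, a secreted stress hormone, had 1.44 to 4.87 CPM at laying, 1.16 to 3.28 in normoxia and 112 to 172 in hypoxia (mean log2 fold 2.35 ± 0.26, edgeR adjusted p = 1.24e-05). LOX, a matrix cross-linking enzyme, was likewise above laying in hypoxia only, with -0.49 in normoxia (not called, edgeR adjusted p = 0.0986) and 3.29 in hypoxia. BHLHE40, a clock repressor, was called lower in normoxia (-1.04, edgeR adjusted p = 0.00477) and higher in hypoxia (3.67). Its adjusted p by the rule for opposite changes, from the same edgeR fit, was 0.0504. The glucose transporter gene SLC2A1 and the pyruvate kinase gene PKM were lower for the mean, at -1.28 ± 0.16 and -1.27 ± 0.19 (edgeR adjusted p = 4.4e-05 and 0.00016). SLC2A1 had 568, 592, 809, 743 and 645 CPM at laying, 113 to 191 in normoxia and 267 to 564 in hypoxia. The highest hypoxia library, at 564.4 CPM, lay just under the lowest at laying, at 568.2. The hypoxia arm of SLC2A1 was not called (-0.48, edgeR adjusted p = 0.06). PKM had 5751 to 6489 CPM at laying, 843 to 2178 in normoxia and 3041 to 4879 in hypoxia, and its hypoxia arm was called (-0.60, edgeR adjusted p = 0.0413). In glycolysis as a list 4 of 26 genes were higher, 5 lower and 6 opposite, and 2 were higher without freshly laid replicate 1, 2 or 4. The shares higher and lower, 15.4% and 19.2%, are near those of all genes (14.7% and 15.5%), while 1.2% of all genes were opposite. The model with 2 groups left 4 of the HIF targets higher.

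Smaller lists gave the following. Among all tested genes 14.7% were higher and 15.5% lower for the mean. In the arms the shares of all genes were 15.2% and 16.1% in normoxia and 20.9% and 19.4% in hypoxia. Of 21 immediate early genes 11 were higher and none lower, with medians of 0.32 in normoxia and 1.76 in hypoxia, and JUNB had 8.23 to 16.2 CPM at laying, 7.38 to 11.6 in normoxia and 63.4 to 91.7 in hypoxia. Of 23 clock genes 6 were higher and none lower for the mean, but 1 was higher and 4 lower in normoxia and 11 higher and 1 lower in hypoxia, with medians of -0.15 in normoxia and 0.51 in hypoxia. CRY2, a repressor of the clock, had a mean log2 fold of 0.88 ± 0.13 (edgeR adjusted p = 0.000122), with 0.03 in normoxia (adjusted p = 0.905) and 1.74 in hypoxia (1.91e-07). In the insulin and IGF list 9 of 20 were higher and 3 lower for the mean, while 2 were higher and 9 lower in normoxia and 11 higher and 2 lower in hypoxia, with medians of -0.64 in normoxia and 0.82 in hypoxia. The growth factor gene IGF2, with 2.03 in normoxia and 2.19 in hypoxia, and the gene of its clearing receptor, IGF2R, with 0.53 in normoxia and 1.57 in hypoxia, were among the higher ones for the mean (edgeR adjusted p = 0.000186 and 0.000406). Apoptosis genes were higher in 4 of 19 and lower in 5, the survival gene MCL1 at 0.99 ± 0.15 (0.000242) among the former, and 3 were lower without freshly laid replicate 1 or normoxia replicate 3. Locus-number genes, which carry no symbol, made up 3947 of the genes tested, with 416 higher and 581 lower.

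Markers of leukocytes and of the oviduct, cells that an early embryo should not hold, were measured too. Of 15 tested leukocyte markers 1 was higher and 1 lower, 6.67% each beside 14.7% and 15.5% of all genes. In the arms 3 were higher and 1 lower in normoxia, and 1 was higher and 0 lower in hypoxia. Their summed level was 51.8 to 94.2 CPM at laying, 85.8 to 157 in normoxia and 53.5 to 126 in hypoxia. PTPRC, a surface phosphatase of all leukocytes, had 0, 0, 0.121, 0.153 and 0.597 CPM at laying and 0 to 5.11 CPM with a median of 1.52 after incubation (log2 fold 3.27 ± 0.94, edgeR adjusted p = 0.0146, and 4.56 without freshly laid replicate 5). Other leukocyte markers differed widely at laying, with 7 counts for CD4, 12 for LCP1, 18 for FCER1G, 455 for CORO1A and 3033 for CD38 over the 5 libraries. CD38 and CORO1A had 6826 and 347 counts in normoxia and 3851 and 425 in hypoxia. The T cell marker CD3E, not tested, had 9 counts at laying, 62 in normoxia and 65 in hypoxia. Of 5 tested markers of oviduct and eggshell gland none was called by edgeR for the mean, where the background is 30.2%. In the arms 2 were higher in normoxia, and 1 was higher and 1 lower in hypoxia. Their summed level was 12.7 to 36.7 CPM at laying, 9.40 to 158 in normoxia and 3.12 to 54.9 in hypoxia, and CALB1, a calcium carrier of the shell gland, made up most of it at laying and in normoxia. CALB1 was lower than at laying in hypoxia (-3.80, edgeR adjusted p = 0.0021), had 1.46 in normoxia (0.147), and differed between hypoxia and normoxia by -5.25 ± 0.91 (0.000139). PIGR, an epithelial antibody transporter, was the 1 member with an unadjusted p under 0.05 for the mean in edgeR and the 1 called by DESeq2, and limma-voom called none. It had 0 to 1.27 CPM at laying and 0 to 46.3 CPM with a median of 2.47 after incubation, with hypoxia replicate 3 highest (log2 fold 3.41 ± 1.30, edgeR adjusted p = 0.055), and the hypoxia arm was called at 4.70 (0.0144). Its mean log2 fold was 2.63 without that library and 4.15 without freshly laid replicate 3, and its adjusted p fell to between 0.0372 and 0.0478 without hypoxia replicate 2 or 5 or normoxia replicate 1 or 4. Summed over the freshly laid libraries, the secretory marker MUC5AC had 1 count, OC90 had 2, CA4 had 1 and PAX8 had 4. Other members had more, with 17 for the estrogen receptor gene ESR1, 28 for FOXJ1, 65 for PGR and 92 for SPP1. In normoxia and hypoxia FOXJ1 had 337 and 24 counts, PGR 71 and 116, and SPP1 331 and 36.

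Blood and endothelial genes were higher in 5 of 23 and lower in 1, shares of 21.7% and 4.35% beside 14.7% and 15.5% of all genes. Their summed levels were 195 to 459 CPM at laying, 407 to 715 in normoxia and 318 to 668 in hypoxia. NFE2, of blood cell precursors, was among the higher ones at 2.78 ± 0.85 (edgeR adjusted p = 0.0198), and at 3.69 without freshly laid replicate 4, but limma-voom did not call it (adjusted p = 0.0704). FLT4, a receptor of lymphatic vessels and early endothelium, was lower in every incubated library, at 0.715 to 1.89 CPM with a median of 1.46 against 2.3 to 5.79 CPM at laying (log2 fold -1.37 ± 0.32, edgeR adjusted p = 0.00442). The count of 5 ranged from 2 without freshly laid replicate 2 to 3 without freshly laid replicate 1 or 3, hypoxia replicate 3 or normoxia replicate 2, and it was 8 by DESeq2 and 1 by limma-voom.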

How the data were processed

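RNA was sequenced from 15 embryos, 5 in each of 3 groups. The deposited values are whole-number counts per gene, with gene lengths beside them. Per the submitters' processing notes, reads were aligned with STAR, and per the file headers the authors counted them with featureCounts 1.6.2 on the annotation of rCheMyd1.pri, with strand setting 2 (reverse-stranded) and a minimum mapping quality of 10. The sources used here do not state the aligner's settings. Reads of near-identical gene copies may have been split or dropped by that filter. The table has 18 count columns, and the 3 whose names fit none of the sample titles were set aside. An entry without a gene name, 0.0553 to 0.334% of the counts, was left out, as no gene can be assigned to it.

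From the counts, 16639 of 23730 named genes passed edgeR's filterByExpr and were tested with edgeR 4.0.16 (R 4.3.3), a quasi-likelihood fit with TMM scaling and 1 mean per group over all 15 libraries, with Benjamini-Hochberg adjustment over all genes at a threshold of 0.05. The tested contrast was the mean of normoxia and hypoxia minus freshly laid on the log2 scale. The common biological coefficient of variation was 0.367 with 12 residual degrees of freedom. On simulated data with 200 changed genes among 16443, the fit recovered 90.0 to 100% of genes changed by 2 and 50.0% of those changed by 1 on the log2 scale, and 4.08% of its calls were false. There both incubated groups shared every change, few genes changed and libraries were drawn independently. The simulation therefore does not give the share of false calls in the real data. TPM used the deposited gene lengths. Alternatives were DESeq2 1.42.0, limma-voom (limma 3.58.1), other scalings and filters, a model with 2 groups, covariates, and leaving out each library.

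The members and the 36 gene lists were chosen with earlier results of these data known. Genes named with statistics were, among called genes with a symbol, a mean of at least 20 counts on the higher side and no overlap, the 8 rises and 8 falls with the largest smaller arm and the 8 and 8 with the smallest adjusted p. The 12 genes with the highest TPM at laying, up to 2 genes per list by adjusted p and the 6 genes with the widest opposite changes were named too. No gene met the rule for a switch from or to no counts. A further 20 genes, namely NODAL, FOXH1, MYF5, MEOX2, IRX3, SIX3, NKX2-2, CDX2, FN1, TET2, HK2, BMP2, BMP7, FGFR3, CDH2, NPC2, CTSZ, SDF2L1, TOP2A and CDKN1B, and list members given with a single value were named after their values were seen. A few genes that the rule would name are not reported here. No sequences were used here.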

Additional observations from a re-analysis of the deposited data

Results flagged for a closer look

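In 38 of 390 group values tested, 1 library of 5 stood apart from the other 4 by a gap that took up most of the range of its group (Dixon's test at the 95% level). That level holds for normally distributed values, which CPM need not be, so the 38 are not set against a rate by chance. In SLC51B and HES3 the library that stood apart was the only freshly laid one with any count. Of the 38, 9 were in freshly laid replicate 3 and 5 in hypoxia replicate 3. The values below are the CPM of the library that stood apart, with no explanation tested.

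Freshly laid replicate 1 lay below its group in TAT (1.38). Freshly laid replicate 2 lay above its group in B4GALNT3 (124) and RDH10 (33.4). Freshly laid replicate 3 lay above its group in SLC51B (0.0603), HSPA5 (690.4), HIP1R (45.4), TNFAIP6 (22.1), MCL1 (133) and CTSZ (132) and below its group in CDKN1A (2.78) and FGFR1 (169.9), and its share of counts without a gene name, 0.249%, was also above the rest. Freshly laid replicate 4 lay below its group in ATF3 (0.204). Freshly laid replicate 5 lay above its group in HES3 (0.0918), TWIST1 (0.184), PTPRC (0.597) and TP63 (1.74). Normoxia replicate 1 lay above its group in ATOH1 (0.386), DNMT3B (567) and ITGA6 (143) and below its group in RNF180 (3.47). Normoxia replicate 2 lay above its group in MYF5 (4.41) and TET2 (17.6) and below its group in DDX4 (17). Normoxia replicate 3 lay above its group in CA9 (1.94) and SIX3 (11.7). Normoxia replicate 5 lay above its group in PTPRC (3.43), CDKN1A (16.7) and NODAL (0.238) and below its group in B4GALNT3 (7.68). Hypoxia replicate 1 lay above its group in TP63 (8.91) and GADD45G (18.9) and below its group in SLC2A1 (267). Hypoxia replicate 3 lay above its group in LHFPL1 (2.46), RNF180 (26.5), NFE2 (5.62), PIGR (46.2) and CTSZ (762).

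The 6 genes named for the widest opposite moves were chosen by their 2 arms in the same fit. Their difference between hypoxia and normoxia follows from that choice. Its adjusted p in edgeR, at most 6.93e-08, is therefore not a further test. The log2 difference of hypoxia minus normoxia was 5.73 for EGLN3, 6.55 for ANKRD37, 5.72 for DDIT4, 4.82 for ITGB7, 5.28 for CA9 and 5.26 for BHLHE41. In each of these genes all 5 hypoxia libraries were above all 5 normoxia libraries, which the choice also favours.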

How the results depend on the processing

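A model with 2 groups, laying and incubation, in which the difference between oxygen levels counts as spread, called 2161 genes, 1195 higher and 966 lower, and it ended the calls of EEF1A1, RPLP0, RPS2, PPIA, RPS6, RPS3A, RPSA, RPL7A, MCM2, MCM10, NCAPH, TOP2A, SLC2A1, CRY2, BHLHE40, JUNB, JARID2, FZD7, LOX and FOXH1. The folds moved in that model too, from -1.30 to -0.56 for MCM2 and from 1.31 to 2.73 for BHLHE40. DESeq2 gave 1148 genes changed the same way under both oxygen levels and 439 in opposite ways. With neighbouring normoxia libraries summed these counts were 313 and 63. With a covariate for the block of 50 title numbers the opposite count was 126. With one for S numbers of 12 and above in the column names, whose meaning is not stated, it was 132. That covariate was added after seeing the data. Leaving out 1 library gave 3877 to 5104 changed genes, 1838 to 2467 higher and 2039 to 2640 lower, 798 to 1104 without overlap, 406 to 682 the same way and 109 to 226 in opposite ways. The causes of these moves were not tested beyond what each setting removes. No named gene or count that was called changed direction under any setting run. Of the other values over all settings, 5015 kept their call or stayed within 1.5 times, 187 list counts moved further, 33 calls ended and 14 began.

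The titles give no replicate number shared between groups, so libraries were not matched 1 to 1. A fit with the block of 50 title numbers as a covariate called 4572 genes, 2211 higher and 2361 lower, with 525 changed the same way. It changed the call of 1 named gene, ENO1, which was called lower (-0.47, edgeR adjusted p = 0.0116). Libraries of different groups in the same block of 50 title numbers deviated together in 15 of 15 pairs, with a median correlation over genes of 0.129 and a range of 0.0439 to 0.319. In other pairs it was positive in 21 of 60, with a median of -0.0316. The labels do not say what a block stands for, and the main fit has no block term, so its p-values do not account for this shared deviation. Depth limits the folds of genes with few or no counts at laying, for which only lower bounds or wide intervals are given.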
